A study of Mus musculus with 4 samples.

Results

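Creatine kinases, the genes that supply creatine to the cell and a pair of adenylate kinases were followed in hearts of mice with and without Klf9, a Krüppel-like transcription factor with zinc fingers. The 9 genes were taken by symbol from a table of 17485 genes: the cytosolic creatine kinases Ckm and Ckb, the mitochondrial creatine kinases Ckmt1 and Ckmt2, the creatine transporter Slc6a8, the creatine synthesis enzymes Gatm and Gamt, and the adenylate kinases Ak1 and Ak3. All 9 were found in it. Total RNA of hearts had been sequenced in 2 libraries of wild-type mice and 2 of Klf9 knockout mice, male per the labels, 8 weeks old and with free access to food and water. The sources used here do not say how the knockout allele was made, whether it was confined to a cell type or whether animals were pooled. Nothing in the labels says that libraries of 1 group are from different animals, so the p-values reflect the spread among these 4 libraries alone, and that spread may be technical.

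Creatine kinase moves a phosphate between ATP and creatine, so that phosphocreatine serves as a store and carrier of energy in muscle. The mitochondrial isoforms sit in the space between the mitochondrial membranes, where they load creatine with phosphate from newly made ATP, and the cytosolic isoforms return it to ADP near myofibrils and ion pumps. Gatm makes guanidinoacetate from arginine and glycine, and Gamt methylates it to creatine, mainly in kidney and liver. The heart takes up creatine from blood through Slc6a8. Adenylate kinases convert 2 ADP into ATP and AMP, and the AMP is read by AMP-activated protein kinase.

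Since the groups differ in a factor of the Krüppel-like family, whose members bind GC-rich and CACCC-type sequences, promoter windows of the members that fell most (Ckmt2), that rose (Ckb and Gamt) and that did not pass the test (Ckm) are shown first. The windows, from 250 bases before to 50 bases after the RefSeq start (GRCm38.p6), read 5′ to 3′ on the strand of the gene. They lie at chr13:91876836-91877135 (minus strand) for Ckmt2, chr12:111672289-111672588 (minus strand) for Ckb, chr10:80260963-80261262 (minus strand) for Gamt and chr7:19410844-19411143 (plus strand) for Ckm. Capitals mark GGGCGG and CACCC on either strand.
Ckmt2: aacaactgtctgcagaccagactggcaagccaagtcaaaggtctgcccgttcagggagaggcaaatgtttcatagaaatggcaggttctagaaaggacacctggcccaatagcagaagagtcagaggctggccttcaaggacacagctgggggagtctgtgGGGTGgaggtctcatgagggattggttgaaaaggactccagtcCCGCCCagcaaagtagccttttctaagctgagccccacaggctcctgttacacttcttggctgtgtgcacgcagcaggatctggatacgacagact
Ckb: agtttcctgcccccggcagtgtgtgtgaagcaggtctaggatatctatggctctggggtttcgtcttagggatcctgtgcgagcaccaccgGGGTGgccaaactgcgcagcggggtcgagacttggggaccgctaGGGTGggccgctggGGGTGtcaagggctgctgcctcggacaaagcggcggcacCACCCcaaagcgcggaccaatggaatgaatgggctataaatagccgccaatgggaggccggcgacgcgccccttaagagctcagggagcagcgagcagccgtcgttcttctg
Gamt: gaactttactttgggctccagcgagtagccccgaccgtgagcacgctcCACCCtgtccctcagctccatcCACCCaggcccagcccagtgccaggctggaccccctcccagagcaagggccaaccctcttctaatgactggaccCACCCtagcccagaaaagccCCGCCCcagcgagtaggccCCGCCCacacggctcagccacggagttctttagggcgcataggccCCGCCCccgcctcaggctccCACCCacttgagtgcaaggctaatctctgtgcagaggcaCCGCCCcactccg
Ckm: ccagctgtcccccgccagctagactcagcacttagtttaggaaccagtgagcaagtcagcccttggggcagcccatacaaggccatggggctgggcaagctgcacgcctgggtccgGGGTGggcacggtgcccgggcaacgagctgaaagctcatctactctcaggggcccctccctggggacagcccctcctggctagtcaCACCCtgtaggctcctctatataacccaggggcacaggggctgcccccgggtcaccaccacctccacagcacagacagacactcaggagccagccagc

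Windows were found for 8 of the 9 members (Slc6a8 had none in the table), 12 in all because Ckmt1 and Ak1 have several starts. GGGCGG stood in 3 of the 12 windows, with 4 matches in Gamt, 3 in Ak3 and 1 in Ckmt2, beside 35.7% of the 32851 mouse windows searched. CACCC stood in 9 of 12, with 4 matches each in Ckb and Gamt, 2 in Ckm, 1 in Ckmt2 and 0 in Gatm, beside 57.5% of all windows. The E-box CANNTG stood in 10 of 12 (72.3% of all windows) and AAGGTCA, a partial site of nuclear receptors, in 2 of 12 (4.72% of all windows), 1 in a window of Ckmt1 and 1 in a window of Ak1. Both strands were read and overlapping matches of different motifs were each counted. Ckmt2, which fell, and Gamt, which rose, both hold both of the first 2 motifs, so these letters do not divide the members by direction. A match is a description of the sequence and was not tested as a binding site.

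The deposited table held log2 ratios between libraries, from which an expression value per library was recovered. The values are scaled by transcript length: across 4537 to 5394 genes, the reads per unit of value implied by the authors' deposited Poisson p-values grew with annotated transcript length with a log-log slope of 0.92 to 0.93, so that levels of different genes are compared per length. These p-values correspond to about 11.4 to 14.3 reads per kilobase and unit of value. The values of the 4 libraries summed to 426032 and 489534 in wild type and to 409359 and 418974 in the knockout.

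The labels were checked on a few genes before the results. Klf9 stood at 74.9 and 58.8 in wild type against 2.66 and 1.99 in the knockout. Tnni1, a troponin I of the fetal heart, stood at 0.16 and 0.01 in wild type and at 656 and 994 in the knockout. All 7 genes of a list of immature heart genes were higher there, beside 27.7% of all tested genes. Of these, Tnni1 and Dlk1 passed the filter for testing only through the knockout libraries. The summed values of the list were 62.3 and 42.8 in wild type and 1170 and 1773 in the knockout. Esr1, the estrogen receptor, stood at 3326 and 2726 in wild type and at 0.09 and 0.03 in the knockout, and Kdm5d, a Y-linked gene, at 3.42, 3.97 and 4.01 in the first 3 libraries and at 0.01 in knockout replicate 2, against the male label. The loss of Klf9 and these other differences between the groups cannot be told apart. Cardiomyocyte genes were abundant in all 4 libraries, with 7 markers summing to 27550 and 32316 in wild type and 32267 and 30413 in the knockout. Of these 7 markers, 1 fell (Tnni3) and 6 did not pass. Among the 6 were Myh6 (log2 fold change 0.44) and Myl2 (0.50), the 2 with the highest means. Groups did not overlap in 2 markers that were higher in the knockout and 4 that were lower, beside 75.4% of all tested genes. The sums thus hold changes in both directions. In RNA of whole tissue, fewer cells of a type and less RNA per cell cannot be told apart.

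Among the members, Ckmt2 fell 4.83-fold and Slc6a8 1.63-fold by the group means, Ckb, Gamt and Gatm rose 1.98-fold, 2.06-fold and 2.29-fold, and Ckm, Ak1 and Ak3 did not pass the test. Of the 8 members open to the test, 3 rose and 2 fell in the knockout, at an adjusted p below 0.05 (limma on log2(value + 1), with Benjamini-Hochberg adjustment over 12135 genes). Of all tested genes 27.7% were higher and 17.0% lower, 44.7% in all. The count of calls among the members is therefore close to that among all genes, and the direction and size of each member are described below. The groups did not overlap in 7 of the 8 tested members, beside 75.4% of all tested genes. The median log2 fold change of the 8 was -0.14 and that of all tested genes was 0.12.

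**Figure D1:**
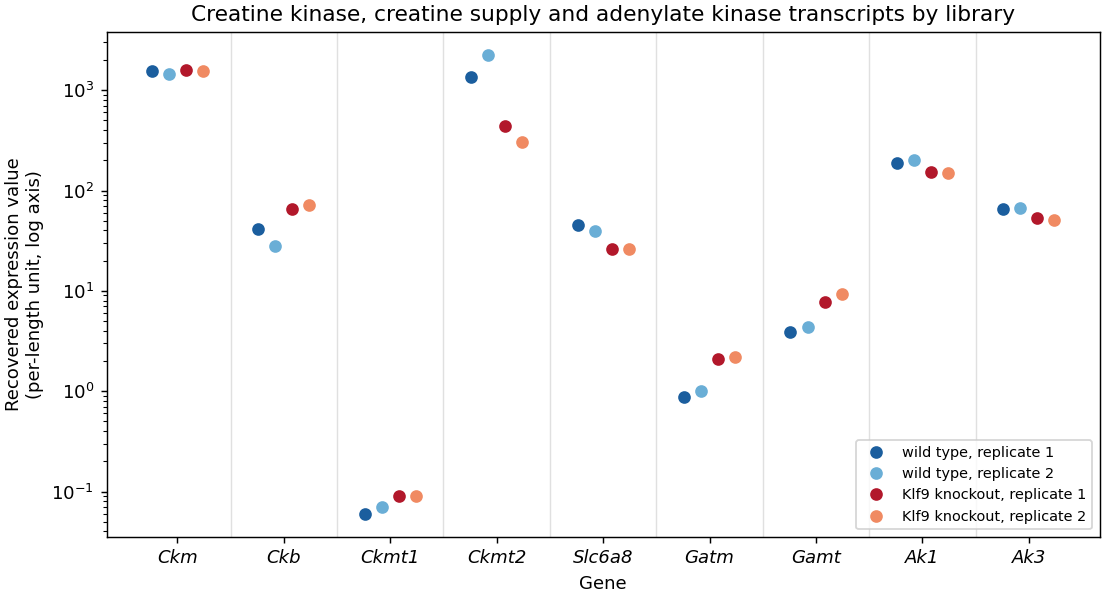
Recovered expression value (per-length unit, log axis) of each of the 9 genes in each of the 4 libraries, 1 point per library. Ckm lies between 1457 and 1608 in the 4 libraries, Ckmt2 lies between 1369 and 2234 in wild type and between 304 and 442 in the knockout, and Ckmt1 stays below 0.1; the values of Slc6a8 may be too low by a common factor.

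Ckm encodes the muscle creatine kinase, the main cytosolic form in the heart. It stood at 1566 and 1457 in wild type and at 1608 and 1556 in the knockout, so the groups overlapped. The log2 fold change was 0.07 ± 0.23 (SE, n = 2 per group; limma adjusted p = 0.840), with a 95% confidence interval of -0.46 to 0.59, and its sign was negative after RLE scaling of the libraries (-0.08). The authors' deposited log2 ratios of the 4 pairs of libraries ran from -0.01 to 0.14. In the authors' deposited table Ckm nevertheless has a DEGseq q of 4.17e-10 at a group log2 ratio of 0.06, and 8 of the 9 members have a q below 0.05, as do 70.0% of all genes with a q. Its own deposited Poisson p-values correspond to about 21000 to 28000 reads in each library, so that counting error was small beside the spread between libraries.

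Ckmt2 encodes the sarcomeric mitochondrial creatine kinase, the partner of Ckm in striated muscle. It stood at 1369 and 2234 in wild type and at 442 and 304 in the knockout. Both knockout libraries lay far below both wild-type libraries, although the libraries also differed within each group. The log2 fold change was -2.25 ± 0.30 (SE, n = 2 per group; limma adjusted p = 0.000536), and the mean was 4.83-fold higher in wild type. The deposited log2 ratios ran from -2.88 to -1.63 over the 4 pairs. The difference between the wild-type libraries, 0.71 on the log2 scale, was larger than that of 93.3% of tested genes. Across 11954 tested genes, the log2 difference of wild-type replicate 2 from replicate 1 had a Spearman rho of -0.40 with transcript length. That of knockout replicate 2 from replicate 1 had a rho of -0.28. That of knockout from wild type had a rho of 0.18 (shorter transcripts lower in the knockout). These values describe genes within these libraries. The transcript of Ckmt2 is short, as are those of Ckb (1472 bases) and Gamt (988 bases). The part of transcript length in the values of these members was not tested. Without wild-type replicate 1, which has the lower Ckmt2, the log2 fold change was -2.60, and without wild-type replicate 2 it was -1.90. With 1 library left in a group, the error of such a fit comes from the other group alone. The 7 cardiomyocyte markers, of which 1 fell, had a median log2 fold change of -0.47. Their sums overlapped between the groups but hold changes in both directions. Without overlap, 2 markers were higher and 4 lower in the knockout, beside 75.4% of all tested genes without overlap in either direction.

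Ckb encodes the brain-type creatine kinase, which the heart expresses at a low level beside Ckm and which is also found in smooth muscle and nerve. It stood at 41.4 and 28.1 in wild type and at 65.3 and 72.5 in the knockout, with no overlap. The log2 fold change was 0.99 ± 0.22 (SE, n = 2 per group; limma adjusted p = 0.00686), and the deposited log2 ratios ran from 0.66 to 1.37. Without knockout replicate 2 the log2 fold change was 0.92, and the call was lost in a fit whose error comes from the wild-type pair alone. Markers of smooth muscle, which can hold Ckb, were also higher. Of 5 smooth muscle markers 4 rose, led by Acta2 and Smtn, beside 27.7% of all tested genes. Their summed values were 178 and 137 in wild type and 421 and 534 in the knockout. Nerve and glia markers shared no direction: of 6, only Uchl1 was tested and rose, and it held most of their sum of 15.96 and 13.3 in wild type and 21.2 and 24.7 in the knockout. Mbp, the myelin basic protein, stood at 0.90 and 1.6 in wild type and at 0.85 and 0.71 in the knockout, and the other 4 were below 1 in all 4 libraries. Their part in the change of Ckb was not tested.

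Ckmt1, the ubiquitous mitochondrial creatine kinase, was listed at 0.06 and 0.07 in wild type and at 0.09 in both knockout libraries, values that correspond to about 1 or 2 reads. It did not reach the value of 1 needed for a test, and a difference was not detectable at this depth. In GENCODE its exons overlap those of Strc on the opposite strand, and the sources used here do not say whether counting used strand. The same holds for Ak3 and Cdc37l1.

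The creatine kinases were then set against each other within each library. Their shares and plain ratios do not depend on the scaling of libraries, but their summed value does. The log2 ratios below were taken on value + 1 and so depend on it slightly. Without the pseudocount the difference between groups was -2.32 for Ckmt2 to Ckm and 0.95 for Ckb to Ckm. The summed value of the 4 isoforms was 2977 and 3719 in wild type and 2115 and 1933 in the knockout. Ckmt2 made up 46.0% and 60.1% of it in wild type and 20.9% and 15.7% in the knockout, while Ckm made up 52.6% and 39.2% and then 76.0% and 80.5%. Ckb was a small part throughout, 1.39% and 0.754% in wild type and 3.09% and 3.75% in the knockout. At the values as recovered, Ckmt2 was thus close to Ckm in wild type, below it in replicate 1 and above it in replicate 2. Their order cannot be given beyond that spread. In the knockout Ckm exceeded Ckmt2 by 3.64-fold and 5.11-fold. A factor common to the 4 values of a gene is lost in the recovery. For Ckmt2 this could not be checked, since its deposited Poisson p-values are all 0. Such a factor would change the shares and the level of Ckmt2 beside Ckm, but hardly the difference of their ratio between groups. The log2 ratio of Ckmt2 to Ckm was -0.19 and 0.62 in wild type and -1.86 and -2.35 in the knockout, a difference of -2.32. That of Ckb to Ckm was -5.21 and -5.65 in wild type and -4.60 and -4.40 in the knockout, a difference of 0.93. In each of these ratios the groups did not overlap, and the exact two-sided permutation p was 0.333, the smallest that 2 against 2 libraries can give.

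**Figure D2:**
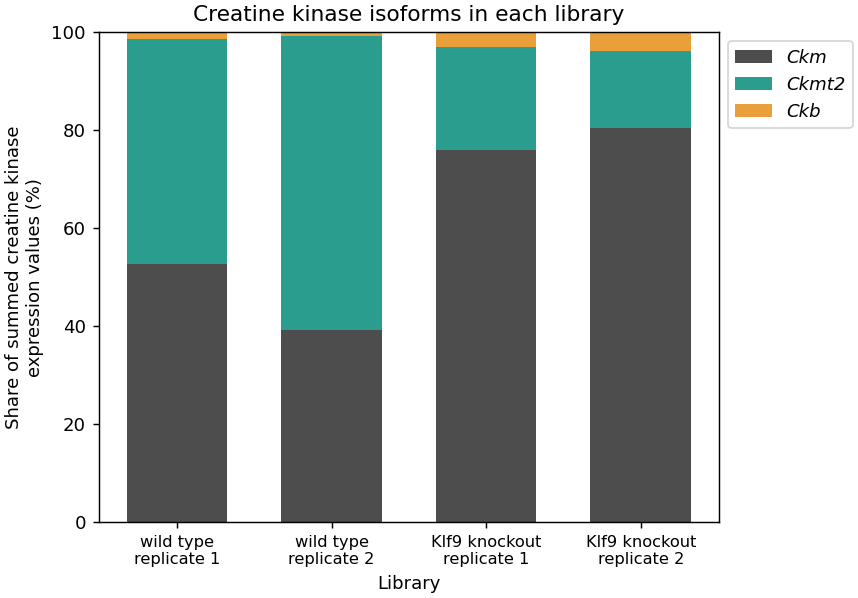
Share of each creatine kinase isoform in the summed creatine kinase expression values (%, vertical axis) of each of the 4 libraries; Ckmt1, below 0.005%, is not drawn. Ckmt2 takes 46.0% and 60.1% in wild type but 20.9% and 15.7% in the knockout, where Ckm takes the larger part. The shares rest on the values as recovered, and the level of Ckmt2 could not be checked for a lost common factor.

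Slc6a8 encodes the sodium- and chloride-dependent creatine transporter of the plasma membrane. It stood at 45.5 and 39.7 in wild type and at 26.2 and 26.25 in the knockout, with no overlap and a near-equal level in both knockout libraries. The log2 fold change was -0.68 ± 0.18 (SE, n = 2 per group; limma adjusted p = 0.0150), and the deposited log2 ratios ran from -0.80 to -0.60. Without either knockout library in turn the log2 fold change stayed at -0.68, and the call was lost. The error of these 2 fits comes from the wild-type pair alone. Over tested genes the median absolute log2 difference between replicates was 0.26 in wild type and 0.13 in the knockout. Whether the call was lost through this change of error was not tested. The reads implied by its deposited p-values were 1.96 to 2.11 times those expected from its value and its annotated length of 3964 bases. Of the other 6 members with such an estimate, 5 lay at 0.898 to 1.06 times. Ckm, with an annotated length of 2742 bases, lay at 0.407 to 0.467 times. Whether the ratio of Slc6a8 comes from its values or from its annotated length was not tested. A common factor of the 4 values is lost in the recovery, so the level of Slc6a8 may be near 91.1 and 79.3 in wild type and 52.4 and 52.5 in the knockout; with these doubled values the log2 fold change was -0.69 (adjusted p = 0.0167).

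Gatm and Gamt encode the first and second enzyme of creatine synthesis, which in mammals is carried out largely outside the heart. Gamt stood at 3.88 and 4.38 in wild type and at 7.76 and 9.25 in the knockout (log2 fold change 0.89 ± 0.17, SE, n = 2 per group; limma adjusted p = 0.00359). Gatm stood at 0.88 and 1.0 in wild type and at 2.10 and 2.21 in the knockout (log2 fold change 0.70 ± 0.15, adjusted p = 0.00615). Neither overlapped between the groups, and both were low beside the transporter: the values of Gatm correspond to about 30 reads in a wild-type library and 65 to 70 in a knockout library. The pseudocount of 1 shrinks such low genes, and with a pseudocount of 0.1 the log2 fold change of Gatm was 1.12 and that of Gamt 1.02. Gatm passed the filter of a value of 1 in 2 libraries through its knockout libraries and wild-type replicate 2. Without knockout replicate 2 the log2 fold change of Gamt was 0.77, and its call was lost in a fit whose error comes from the wild-type pair alone. Within a library the log2 ratio of Gamt to Slc6a8, taken on value + 1, was -3.25 and -2.92 in wild type and -1.63 and -1.41 in the knockout. The transporter transcript thus remained above that of the enzyme in all 4 libraries (exact two-sided permutation p = 0.333 for the difference of 1.56). Without the pseudocount this difference was 1.74.

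**Figure D3:**
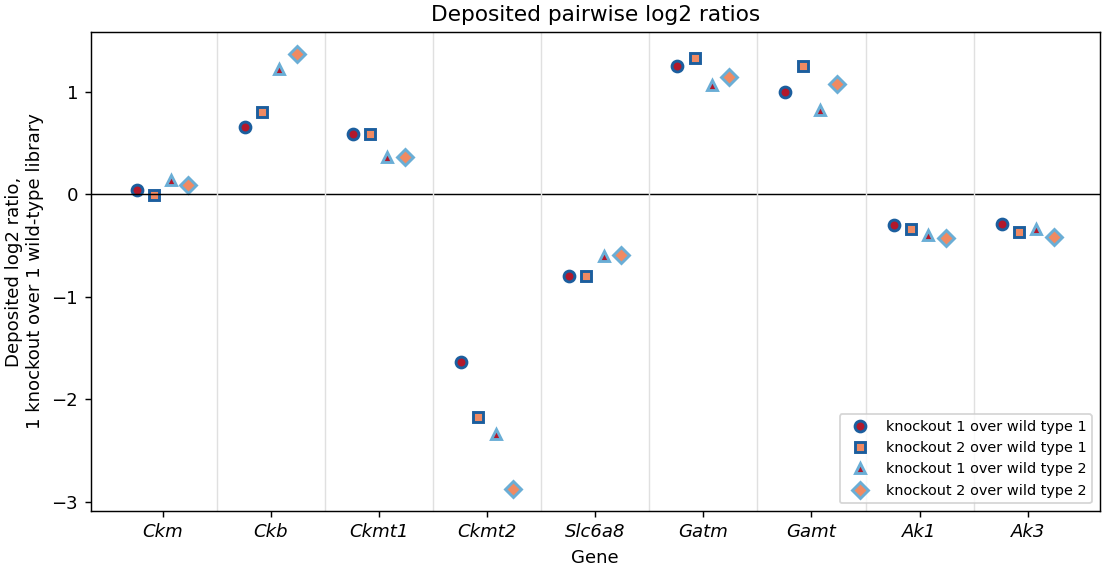
Deposited log2 ratio of 1 knockout library over 1 wild-type library (vertical axis) for each of the 9 genes, 1 symbol per pair, where pairs share libraries. All 4 pairs lie below 0 for Ckmt2, Slc6a8, Ak1 and Ak3 and above 0 for Ckb, Ckmt1, Gatm and Gamt, and Ckm spans 0 with ratios from -0.01 to 0.14.

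Ak1 encodes the main cytosolic adenylate kinase of muscle and Ak3 the GTP-dependent enzyme of the mitochondrial matrix. Ak1 stood at 188 and 200.3 in wild type and at 152 and 149 in the knockout, and Ak3 at 65.3 and 67.5 and at 53.6 and 50.7. The groups did not overlap in either gene, but the difference was small beside the moderated error: the log2 fold change was -0.36 ± 0.20 for Ak1 (SE, n = 2 per group; limma adjusted p = 0.171, 95% confidence interval -0.82 to 0.09) and -0.34 ± 0.18 for Ak3 (adjusted p = 0.152, 95% confidence interval -0.75 to 0.07). Without wild-type replicate 1 the log2 fold change was -0.41 for Ak1 and -0.37 for Ak3. Both passed in that fit, whose error comes from the knockout pair alone. The log2 ratio of Ak1 to Ckm, taken on value + 1, was -3.05 and -2.86 in wild type and -3.39 and -3.37 in the knockout (exact two-sided permutation p = 0.333).

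Per length, the order of the levels in wild type was Ckm and Ckmt2, then Ak1, then Ak3, then Slc6a8 and Ckb, then Gamt, Gatm and Ckmt1. Slc6a8 and Ckb overlapped in wild type at the values as recovered (39.7 to 45.5 against 28.1 to 41.4), and Slc6a8 would stand above Ak3 if its values are doubled. In the knockout Ckb stood above Ak3 (65.3 and 72.5 against 53.6 and 50.7), the reverse of wild type.

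The other genes of phosphate transfer were taken from 5 lists, 1 with other adenylate kinases and 4 with genes beside them. Of 6 other adenylate kinases 2 could be tested, and 1 fell: Ak4, a mitochondrial matrix enzyme, stood at 13.8 and 12.1 in wild type and at 3.91 and 3.98 in the knockout (log2 fold change -1.49 ± 0.17, SE, n = 2 per group; limma adjusted p = 0.000208). Ak6, whose exons overlap Taf9, had a log2 fold change of -0.56 and did not pass. In that list 0 genes were higher, with 0 also at an unadjusted p below 0.05. Of 7 nucleoside diphosphate kinases, which pass phosphate among nucleotides, 1 fell, Nme5 (2.76 and 2.60 against 0.71 and 1.54; log2 fold change -0.82, but -0.53 and no longer past the threshold without knockout replicate 1, adjusted p = 0.172), and 6 did not pass, including the abundant Nme2 (329 and 475 against 400.01 and 428; log2 fold change 0.07). None of these 7 was higher by limma, and 1 was higher at an unadjusted p below 0.05. Among all tested genes 27.7% were higher and 17.0% lower, and 2 and 7 tested genes are too few to set these lists apart.

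The list of ADP/ATP exchange held the adenine nucleotide translocases, which work beside mitochondrial creatine kinase, the porins and Ppif. Of 6 tested genes 0 were higher and 0 lower by limma, beside 27.7% and 17.0% of all tested genes, with 0 higher and 1 lower at an unadjusted p below 0.05. That gene, named after its values were seen, was Slc25a4, the heart translocase, at 2489 and 3864 in wild type and 1807 and 1912 in the knockout (log2 fold change -0.74 ± 0.28, SE; limma adjusted p = 0.0588). The median of the 6 was -0.29, and Ppif, at 0.02, had the highest log2 fold change. The absence of calls depended on the setting: RLE scaling, upper quartile scaling and the replicate block each called 1 of the 6 lower. Leaving out wild-type replicate 1 also gave lower calls, with an error that comes from the knockout pair alone.

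Of 14 tested genes that read or remove AMP, 2 rose, 4 fell and 8 missed the threshold, beside 44.7% of all tested genes called in either direction, so the count does not set the list apart. The median log2 fold change was -0.01. Prkag2, the γ2 subunit of AMP-activated protein kinase, went from 14.7 and 15.8 to 40.7 and 52.5 (log2 fold change 1.54 ± 0.19, SE; limma adjusted p = 0.000379). Ampd2, an AMP deaminase, went from 3.45 and 1.98 to 10.2 and 11.02 (1.67 ± 0.21, adjusted p = 0.000405). Adk, which turns adenosine back into AMP, went from 67.5 and 103.9 to 30.5 and 27.4 (-1.50 ± 0.23, adjusted p = 0.00106). Nt5e, the surface enzyme that makes adenosine from AMP, went from 7.0 and 7.39 to 3.18 and 2.33 (-1.13 ± 0.18, adjusted p = 0.00127). The remaining genes that fell, named after their values were seen, were Prkab2 (-0.76) and Ampd3 (-0.55). Prkab2 lost its call without knockout replicate 2 (log2 fold change -0.67). Ampd3 lost its call without knockout replicate 1 (-0.65) and without knockout replicate 2 (-0.44). It also no longer passed with no filter (limma adjusted p = 0.0574) or with no pseudocount (0.0584). The catalytic subunits Prkaa1 (0.20) and Prkaa2 (0.0039) did not pass, and the fold change of Prkaa2 is too close to 0 to hold a sign.

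Of 10 tested genes that supply arginine, glycine or methyl groups, 1 rose, 3 fell and 6 missed the threshold. Of all tested genes 44.7% were called in either direction, so the count does not set the list apart. The median log2 fold change was -0.13. Slc7a1, an arginine transporter, went from 3.79 and 1.94 to 6.04 and 6.18 (0.92 ± 0.23, SE; limma adjusted p = 0.0122), a call that was lost with no filter on low values. Gcsh, of the glycine cleavage system, went from 34.2 and 45.8 to 18.45 and 18.39 (-1.06 ± 0.20, adjusted p = 0.00280). Oat, an ornithine aminotransferase, went from 61.2 and 86.96 to 36.7 and 40.1 (-0.91 ± 0.22, adjusted p = 0.00899). Without knockout replicate 1 its log2 fold change was -0.85, and the call was lost. Gnmt, a glycine methyltransferase named after its values were seen, had a log2 fold change of -0.66 at values below 2 and passed the filter only through its wild-type libraries. Arg2 is not analysed here.

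**Figure D4:**
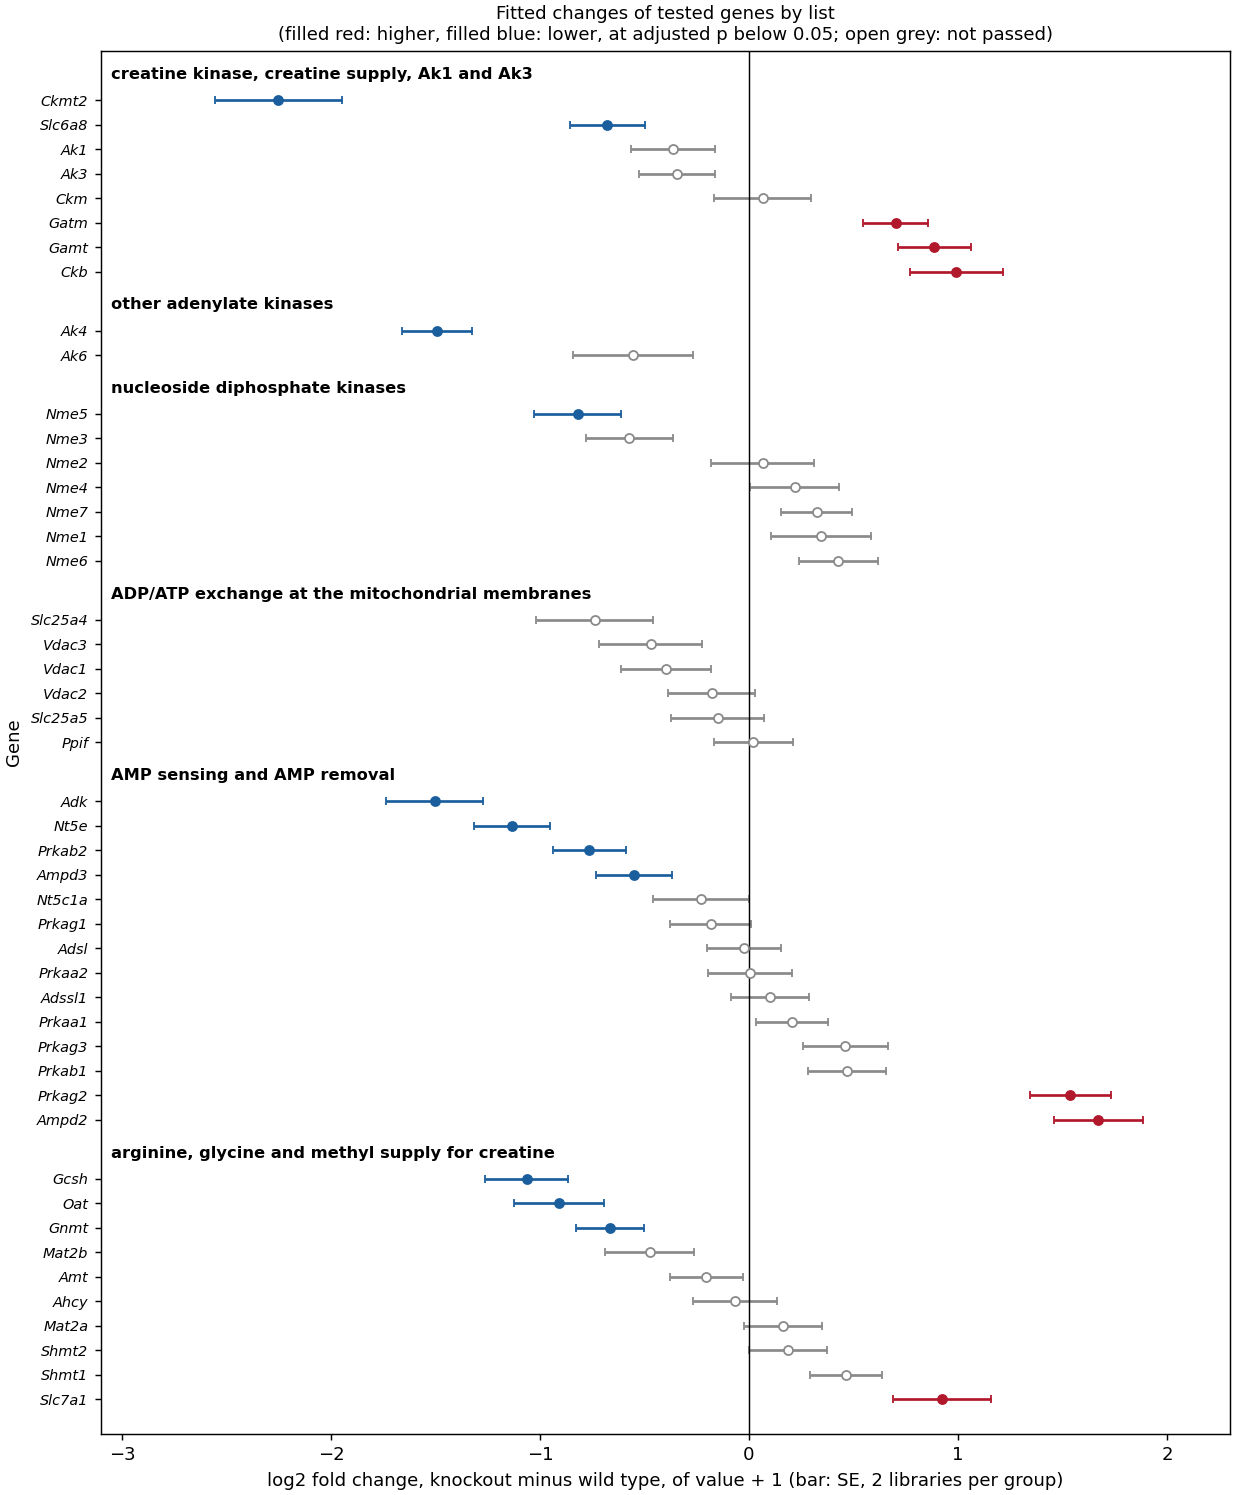
Fitted log2 fold change of value + 1, knockout minus wild type (horizontal axis), of each tested gene by list, with bars for the SE (2 libraries per group); filled symbols passed at adjusted p below 0.05 and open symbols did not. Ckmt2 at -2.25 lies farthest to the left, Ckm lies at 0.07, and the list of ADP/ATP exchange has only open symbols.

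The genes most like 3 of the creatine kinases over the 4 libraries were sought among genes with a mean of at least 10, by the root mean square difference of log2(value + 1) after centring each gene on its mean. With 4 libraries this measure separates few patterns. For Ckm they were Dyrk1a (0.004), Wipi2 (0.009) and Pkm (0.016), all level across the libraries. For Ckb they were Rrbp1 (0.014), Cdc42bpb (0.022) and Scaf1 (0.024), with log2 fold changes of 0.997, 1.02 and 1.01. For Ckmt2 the nearest genes lay farther off, C1s1 (0.104), Ppp1r3a (0.106) and F13a1 (0.122), with log2 fold changes of -2.08, -2.20 and -2.48 and, as in Ckmt2, the higher wild-type value in replicate 2 and the lower knockout value in replicate 2.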

How the data were processed

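RNA sequencing of total heart RNA gave 2 wild-type and 2 Klf9 knockout libraries, grouped by the sample titles. The authors deposited a single table of comparisons. Per the file headers it holds log2 ratios of the 4 pairs of libraries with p-values that the headers name after a Poisson test, and a group log2 ratio with DEGseq p-values and q-values. The false discovery rate columns deposited by the authors were not used. The sources used here name no aligner, quantification, build, strand setting or total depth. Direction, knockout over wild type, was read from the column names and Klf9.

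Where a gene had all 4 ratios (16152 genes) they were additive to within 9.9e-14, so they stem from 4 numbers. Continued fractions gave the smallest whole numbers with those ratios, read as values with a step of 0.01, where 0.01 can stand for 0 and a missing ratio (1333 genes) for a pair at that step. Of 2000 genes drawn, 100% resolved as deposited and 0% after a shift of about 1e-06. A factor common to the 4 numbers of a gene is lost and makes its level, not its ratios, too low. The step is an assumption, so levels are known only up to it. Reads behind a value were estimated from each member's own deposited Poisson p-values (Ckmt1 and Ckmt2 from the annotated length, GENCODE M21) and cover counting error only.

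Genes reaching a value of 1 in 2 or more libraries (12135) were tested with limma 3.58.1 in R 4.3.3 (trend and robust) on log2(value + 1), with group as the only term, no further scaling and Benjamini-Hochberg adjustment over all of them; a fold change on this scale understates that of low genes. The scripts were tested on simulated data. Alternatives were other scalings, pseudocounts, filters and moderation, a replicate block and leaving out libraries. Genes named by rule were the members, up to 2 called genes of lowest p in each direction in each pathway list and 4 checks of the labels. The 3 most alike genes of Ckm, Ckb and Ckmt2 and the 2 markers of highest mean of a list were also named by rule. Named beyond these rules, with their values known, were Ak6, Nme2, Slc25a4, Ppif, Prkaa1, Prkaa2, Prkab2, Ampd3, Gnmt, Tnni3 and Dlk1. Of 9 marker lists, those of fibroblasts (2 of 5 higher, 1 lower), endothelium (2 of 5 higher), macrophages (4 of 5 lower), skeletal muscle (1 tested, higher; 5 of 7 below 1 throughout) and adipocytes (1 tested, not passed) are given here only. Members and lists were chosen with earlier results of these data known, and 2 genes of the lists are not reported here. The analysis used Python 3.11.15, numpy 2.4.6, pandas 2.3.3, scipy 1.17.1 and matplotlib 3.10.9.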

Additional observations from a re-analysis of the deposited data

How the results depend on the processing

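Of 12 alternatives, Ckmt2 and Gatm kept direction and call in 12. Ckb and Gamt did in 11 and Slc6a8 in 10, the exceptions being knockout libraries left out. A fit without 1 library takes its error from the other group alone, so its calls are not like for like with those of the main fit. Ak1 and Ak3 gained a call in 1, and Ckm turned to -0.0821 after RLE scaling, with no call. Leaving out 1 library in turn, which rests on 3 libraries, gave 1859 to 4327 genes higher and 1100 to 3261 lower among all tested genes, and 1 to 3 members higher and 1 to 4 lower. Over these fits other adenylate kinases had 1 to 2 lower, nucleoside diphosphate kinases 0 to 2 higher and 0 to 2 lower, ADP/ATP exchange 0 to 3 lower, AMP genes 2 to 4 higher and 2 to 5 lower, and the supply list 1 to 2 higher and 2 to 4 lower. RLE scaling and upper quartile scaling each gave 2 lower nucleoside diphosphate kinases and 1 lower gene of ADP/ATP exchange; with no filter the supply list had 0 higher. RLE scaling moved the median of all tested genes from 0.12 to -0.01 and the calls from 3367 higher and 2061 lower to 2634 and 2597. With the replicate number as a block (replicate block), there were 2 lower adenylate kinases, 2 lower nucleoside diphosphate kinases and 1 lower gene of ADP/ATP exchange, and 3514 genes higher and 2275 lower in all; the numbers pair no animals in the labels, and same-numbered deviations correlated at -0.04 over genes. The causes were not tested. Total depth is unknown; Ckmt1 lies at the limit of detection.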
